A study of Mus musculus with 23 samples.

Results

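Mouse oxidative phosphorylation subunit genes were described in 23 single cells measured on Affymetrix expression arrays. The members were the probe sets whose only gene symbol begins with Nduf, Uqcr, Atp5 or Cox followed by a digit between 4 and 8, or is Sdha, Sdhb, Sdhc, Sdhd, Cyc1 or Cycs. The muscle isoform genes Cox7a1, Cox6a2 and Cox8b and the Ndufaf assembly factors were left out by that rule. This gave 170 probe sets of 81 genes, out of 45101 probe sets and 18193 genes tested. Genes were assigned to complexes by the opening letters of their symbol alone. Complex I so defined had 36 genes, complex II 4, complex III 9, cytochrome c 1, complex IV 14 and complex V 17. The series tested transfer of a transcriptome between cell types, and each of its arrays held amplified RNA of 1 cultured cell, grown in DMEM with serum and drawn up with a glass micropipette. FibroTIPeR cells (5) were fibroblasts that received cardiomyocyte poly-A RNA through a lipid reagent, and fibroControl cells (3) were fibroblasts given poly-A RNA of fibroblasts. Cardiomyocytes (4) and fibroblasts (3) were not transfected. AstroTIPeR cells (6) were astrocytes given poly-A RNA of cardiomyocytes, and astroControl cells (2) were astrocytes that went through a mock transfection. The labels name neither the animal nor the culture of a cell nor the time after transfer, so n counts cells, and a p-value here reflects spread among single cells that may be technical.

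Oxidative phosphorylation is the last stage of respiration, in which complexes I to IV of the inner mitochondrial membrane pass electrons to oxygen, most of them pumping protons as they do so, and complex V, the ATP synthase (Atp5 genes), uses the proton gradient to make ATP. Complex I (Nduf genes) takes electrons from NADH, complex II (Sdh genes) takes them from succinate, complex III (Uqcr genes and Cyc1) passes them to cytochrome c (Cycs), and complex IV (Cox genes) hands them to oxygen. Nearly all subunits are encoded in the nucleus, while some core subunits of complexes I, III, IV and V are encoded in mitochondrial DNA and are not among these genes. Heart muscle is rich in mitochondria and makes most of its ATP this way.

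The levels are log2 values as deposited, quantile normalized over all arrays, with 1 probe set for each gene, namely the one with the highest mean over the 23 cells. The 15 fibroblast and cardiomyocyte arrays had deposited medians of 5.05 to 5.58 and the 8 astrocyte arrays 4.28 to 4.56, so recipient type and array set cannot be told apart. Cells also stood apart within groups. The mean of 3 control probe sets for 18S ribosomal RNA was 12.38, 11.03, 13.48, 7.80 and 7.88 in fibroTIPeR cells 1 to 5 and 11.6 ± 0.428 in fibroControl cells (SD, n = 3), against 7.48 ± 0.593 in cardiomyocytes (n = 4) and 7.45 ± 0.533 in fibroblasts (n = 3). It was 8.73 ± 0.678 in astroTIPeR cells (n = 6) and 8.63 ± 0.651 in astroControl cells (n = 2). The median of 11 cardiomyocyte markers averaged 9.92 in cardiomyocytes and between 4.71 and 5.33 in the other groups. Single markers departed from that median. In fibroTIPeR cells 1 and 3 Atp2a2 was at 10.85 and 10.59 and Mybpc3 at 8.82 and 9.83, but Myl2 was at 4.03 and 3.98 and Myh6 at 4.98 and 4.52. In untransfected fibroblast 3 Atp2a2 was at 10.6, Myh6 at 8.48 and Mybpc3 at 8.27, but Myl2 was at 4.99. The median of 10 fibroblast markers averaged 7.86 in fibroTIPeR, 9.72 in fibroControl, 5.88 in cardiomyocyte and 8.34 in fibroblast cells. Astrocyte markers did not set both astrocyte groups apart. Gfap, the astrocyte intermediate filament, averaged 4.70 in astroTIPeR and 5.32 in astroControl cells, against 6.13 in cardiomyocytes and 6.01 in fibroblasts. Slc1a2, a glutamate transporter, averaged 8.82 in astroTIPeR and 6.50 in astroControl cells, against 9.42 in cardiomyocytes and 5.39 to 7.64 in the fibroblast groups. S100b averaged 8.30 in astroTIPeR and 6.99 in astroControl cells, against 6.74 to 7.89 in the other groups. The median of the 9 astrocyte markers averaged 8.28 in astroTIPeR, 6.63 in astroControl, 6.73 in fibroTIPeR, 7.03 in fibroControl, 8.91 in cardiomyocyte and 7.69 in fibroblast cells. Macrophage and microglial markers (7) and endothelial markers (4) had group averages between 4.62 and 6.55, and 5 neuronal markers between 9.26 and 10.9.

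No oxidative phosphorylation gene passed the test in any comparison, but most stood higher in cardiomyocytes and in transfected fibroblasts than in untransfected fibroblasts, and they varied together from cell to cell. A gene passed when its limma p-value, adjusted by Benjamini-Hochberg over the 18193 genes, was below 0.05. Summed up as the median over the 81 genes, the level in fibroTIPeR cells was 9.52, 7.17, 9.26, 6.83 and 6.73, and in fibroControl cells 8.34, 8.59 and 8.07. Cardiomyocytes were at 7.38, 8.65, 9.01 and 8.66 and fibroblasts at 6.69, 6.77 and 6.89. All 3 fibroblasts lay below every cardiomyocyte and every fibroControl cell, while fibroTIPeR cells 1 and 3 lay above all other cells and cells 4 and 5 lay within the range of the fibroblasts. AstroTIPeR cells ran between 6.30 and 8.38 with a median of 7.78, and astroControl cells were at 7.51 and 6.62, inside that range.

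**Figure D1:**
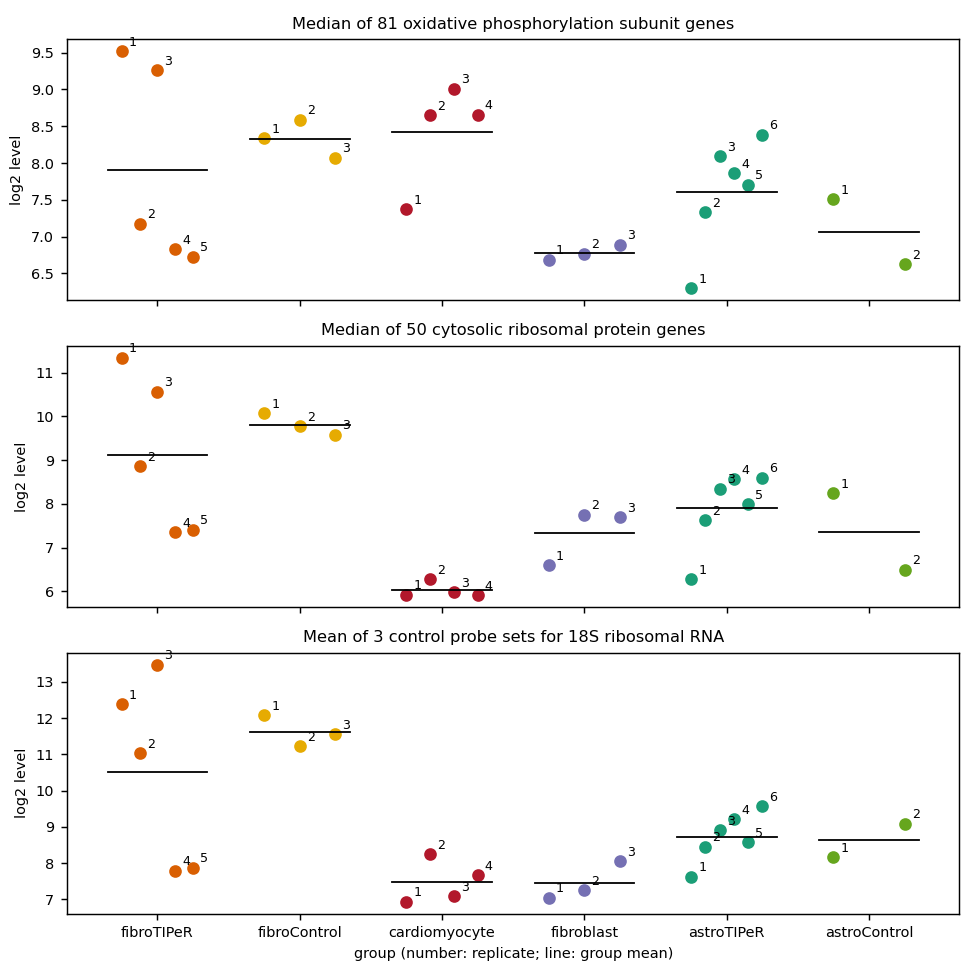
Median log2 level of the 81 oxidative phosphorylation genes (top), median of 50 cytosolic ribosomal protein genes (middle) and mean of 3 control probe sets for 18S ribosomal RNA (bottom) in each cell, with replicate numbers beside the points and lines at the group means. FibroTIPeR cells 1 and 3 are the highest cells at the top (9.52 and 9.26) and in the middle, and the cardiomyocytes are high at the top but low in the middle.

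**Figure D2:**
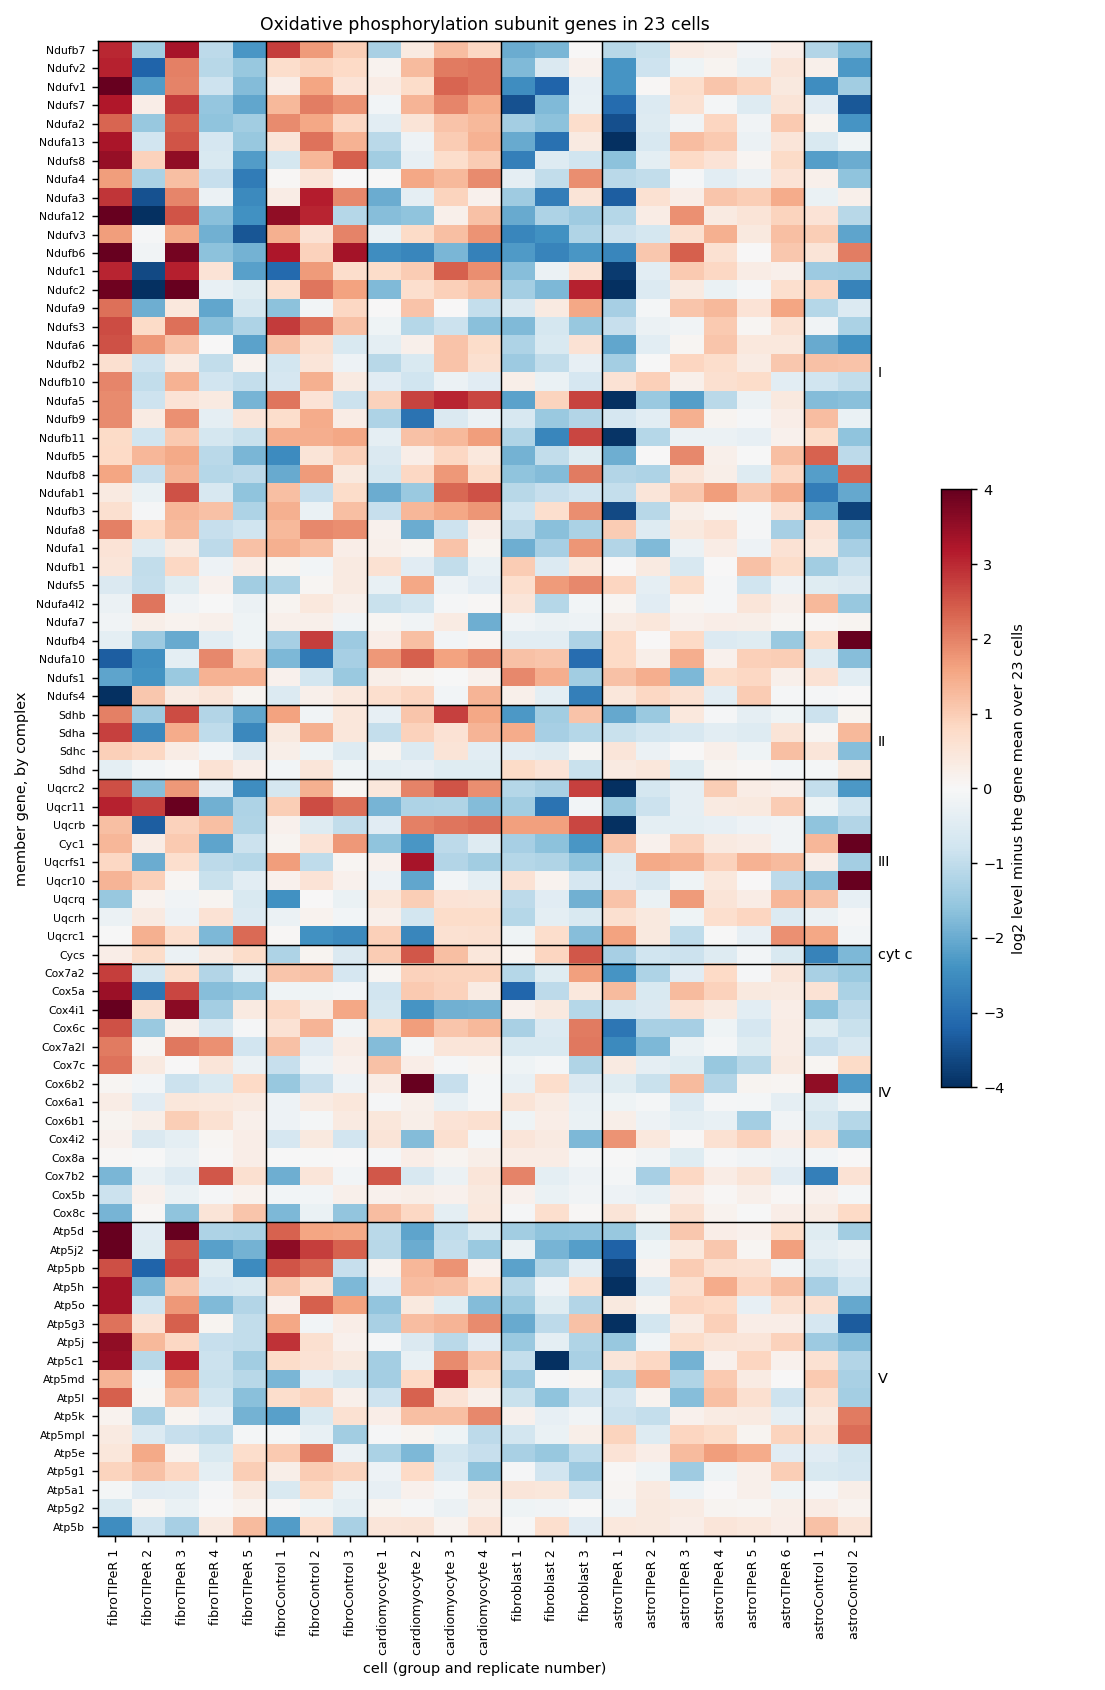
Log2 level of each of the 81 genes minus its mean over the 23 cells, with cells in columns by group and genes in rows by complex, ordered within a complex by how closely they followed the other members. The colour scale ends at 4 log2 units in both directions. Complexes I and V hold long runs of genes that are high in fibroTIPeR cells 1 and 3 and low in astroTIPeR cell 1, and the bottom rows of each complex do not follow them.

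Fibroblasts given cardiomyocyte RNA were set against fibroblasts given fibroblast RNA to ask what the donor type adds to the transfer itself. None of the 81 genes rose or fell (0.0055% of all genes passed), and 2 had an unadjusted p below 0.05 (2.47%, against 6.62% of all genes). The median difference over the 81 genes was -0.09 log2 units and the median over all genes was -0.02. The smallest p-values were those of Atp5j2, the f subunit of the membrane part of ATP synthase, and Uqcrc1, a core subunit of complex III. Atp5j2 was at 10.92, 6.28, 9.26, 4.60 and 4.89 in fibroTIPeR cells, against 10.35, 9.54 and 9.12 in fibroControl cells (difference -2.48, SE 1.15, adjusted p = 0.730). Uqcrc1 was at 8.26, 9.69, 8.95, 6.48 and 10.54 in fibroTIPeR cells, against 8.34, 5.87 and 5.74 in fibroControl cells (difference 2.13, SE 0.996, adjusted p = 0.737). In both genes the groups overlapped, and the fibroTIPeR cells spanned more than 4 log2 units. Ndufs3 (-1.52), Ndufv3 (-1.77) and Ndufa3 (-2.08) followed, with adjusted p-values of 0.780 to 0.810. No member was higher in fibroTIPeR cells without overlap (1.32% of all genes were), and 1, Ndufb11, was lower without overlap (1.68% of all genes were). Leaving out fibroTIPeR cell 1 or 3 moved the median difference to -0.47 or -0.41, leaving out fibroTIPeR cell 2 or 5 moved it to -0.02 or -0.04, and leaving out fibroControl cell 1, 2 or 3 moved it to -0.28, 0.03 or -0.21. With the 18S level as a term it was 0.07.

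Against untransfected fibroblasts, fibroTIPeR cells had more genes above than below, 57 of 81 (70.4%, against 50.2% of all genes), with a median difference of 0.61 (0.00 over all genes). None passed (0.055% of all genes did), while 17 had an unadjusted p below 0.05 (21.0%, against 10.1% of all genes). Ndufs5, a small complex I subunit on the intermembrane side, had the smallest p-value and was lower, at 2.55, 2.18, 2.67, 3.32 and 1.73 in fibroTIPeR cells, against 3.82, 4.85 and 5.05 in fibroblasts (difference -2.08, SE 0.55, adjusted p = 0.178). Atp5e, the epsilon subunit in the stalk of ATP synthase, was at 5.59, 6.66, 5.28, 4.52 and 5.83 in fibroTIPeR cells, against 3.85, 3.62 and 4.12 in fibroblasts (difference 1.71, SE 0.59, adjusted p = 0.330). Neither gene overlapped between the groups. In all, 5 genes were higher without overlap (Atp5e, Ndufb6, Ndufb9, Atp5d and Ndufa8), where 2.65% of all genes were, and 2, Ndufs5 and Uqcrb, were lower without overlap (2.35% of all genes were). The mean 18S level was 10.5 in fibroTIPeR cells and 7.45 in fibroblasts, and with the 18S level as a term in the fit the median difference turned to -0.40. Without fibroTIPeR cell 1 or 3 it was 0.34 or 0.31, and without fibroblast 3 it was 1.04.

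Fibroblasts given fibroblast RNA against untransfected fibroblasts gave the most members with small p-values of the 6 comparisons, and this comparison shares its cells with the other comparisons of fibroblasts. Of the 81 genes, 61 were higher in fibroControl cells (75.3%, against 51.1% of all genes), with a median difference of 0.64 (0.03 over all genes). None passed the threshold (1.56% of all genes did), but 24 had an unadjusted p below 0.05 (29.6%, against 17.3% of all genes). There were 24 genes higher without overlap (29.6%, against 12.5% of all genes), of which 12 were in complex I and 8 in complex V, and 3 genes, Ndufs5, Uqcrb and Cox8c, were lower without overlap (10.9% of all genes were). The mean 18S level was 11.6 in fibroControl cells and 7.45 in fibroblasts, the ribosomal protein median was 9.81 in fibroControl cells and 7.35 in fibroblasts, and with the 18S level as a term the median difference of the 81 genes turned to -0.41. Without fibroblast 3 it was 1.07. With the 18S term 0 of 18193 genes passed. The 18S level ran from 11.23 to 12.08 in fibroControl cells and from 7.05 to 8.06 in fibroblasts. It did not overlap, so that term and the group cannot be told apart in this comparison. The part of the 18S level and of the ribosomal protein genes in the differences was not tested beyond that fit.

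Cardiomyocytes were set against fibroblasts as the comparison of donor and recipient. Of the 81 genes, 64 stood higher in cardiomyocytes (79.0%, against 54.3% of all genes), with a median difference of 0.73 (0.09 over all genes). None passed the threshold (0.225% of all genes did), and 8 had an unadjusted p below 0.05 (9.88%, against 9.72% of all genes), so the share of small p-values was near that of all genes. There were 10 genes higher without overlap (8.41% of all genes were), namely Ndufv1, Ndufv3, Ndufs7, Ndufa10, Ndufc1, Ndufb4, Uqcrq, Cox7c, Atp5pb and Atp5k, and 0 were lower (4.24% of all genes were). The 18S level did not separate these groups, at 7.48 in cardiomyocytes and 7.45 in fibroblasts, and the cytosolic ribosomal protein genes went the other way, with a median of 6.02 ± 0.171 in cardiomyocytes (n = 4) and 7.35 ± 0.650 in fibroblasts (n = 3).

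FibroTIPeR cells were also set against the cardiomyocytes whose RNA they received. Of the 81 genes, 34 stood higher in fibroTIPeR cells (42.0%, against 43.3% of all genes), with a median difference of -0.15, where the median over all genes was -0.14. The mean 18S level was 10.5 in fibroTIPeR cells and 7.48 in cardiomyocytes. With the 18S level as a term the median difference of the members was -0.80 (0.01 over all genes). None of the members passed with that term, where 0.066% of all genes did. Without that term none passed (0.561% of all genes did), and 9 had an unadjusted p below 0.05 (11.1%, against 14.3% of all genes). Atp5e alone was higher without overlap (1.9% of all genes were), and 4, namely Atp5k, Cox5b, Uqcrq and Ndufb4, were lower without overlap (2.01% of all genes were). The fibroTIPeR cells ranged more widely than the cardiomyocytes, from 6.73 to 9.52 in the median of the 81 genes, against 7.38 to 9.01. The median difference was 0.06 when the probe sets of each gene were averaged, -0.39 without fibroTIPeR cell 1 or 3, -0.07 without fibroTIPeR cell 4, -0.49 without cardiomyocyte 1, and -0.08 or -0.07 without cardiomyocyte 3 or 4.

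Astrocytes given cardiomyocyte RNA had 55 of 81 genes above the mock-transfected astrocytes (67.9%, against 54.4% of all genes), with a median difference of 0.36 (0.08 over all genes). None passed (0.0495% of all genes did), and 8 had an unadjusted p below 0.05 (9.88%, against 9.44% of all genes). There were 8 genes higher without overlap (7.02% of all genes were) and 4 lower (4.79% of all genes were), namely Cyc1, Atp5k, Ndufb2 and Atp5b. The result leaned on the 2 mock-transfected cells, since the median difference was 0.91 without astroControl 1 and 0.10 without astroControl 2. The Gapdh control probe set for the 3′ end stood above that for the 5′ end, a sign of RNA length, by 2.94 to 5.05 in astroTIPeR cells, against 1.51 to 2.63 in astroControl cells, without overlap, and the part of this in the differences was not tested. The change with cardiomyocyte RNA in fibroblasts minus that in astrocytes had a median of -0.58 over the 81 genes (-0.09 over all genes), with 21 above 0 (25.9%, against 46.3% of all genes). That median was -0.99 without fibroTIPeR cell 1, -0.94 without cell 3, -0.34 without cell 5 and -0.99 without astroControl 1, and it was -0.39 with the replicate number and -0.23 with the 18S level as a term. None passed there (0% of all genes did), and 4 had an unadjusted p below 0.05 (4.94%, against 7.65% of all genes), led by Ndufab1 at -3.47 (SE 1.53, adjusted p = 0.595). Over the alternatives the Ndufab1 value ranged from -4.1 to -0.40.

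**Figure D3:**
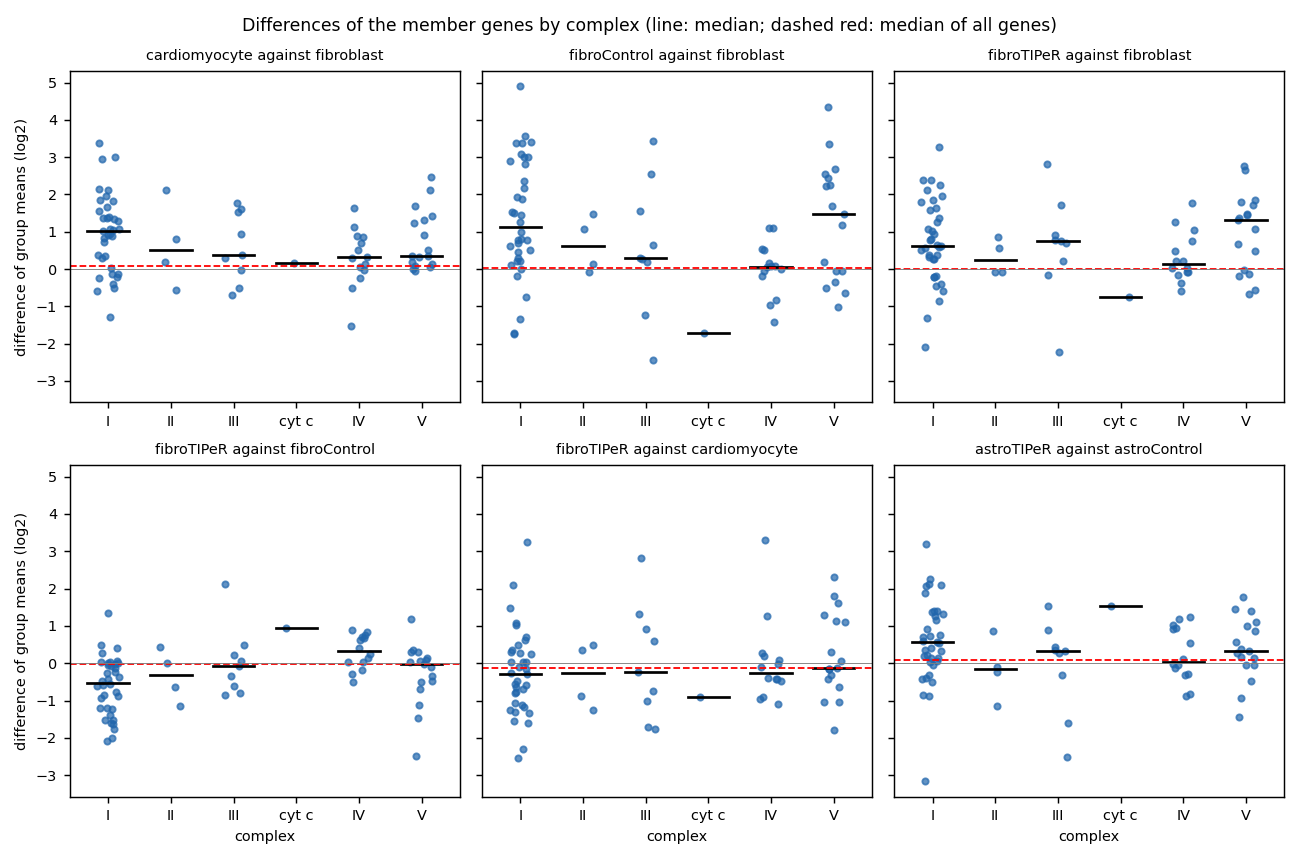
Difference of group means in log2 units for each gene, by complex, in 6 comparisons, with a black line at the median of the complex and a dashed red line at the median of all genes. The medians of complexes I (1.13) and V (1.48) are well above the median of all genes in fibroControl against fibroblast, and the median of complex IV is 0.06 there. Each gene is read from 1 probe set, and several of those used in complex IV are bright and nearly flat.

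Complex I, where electrons from NADH enter, is the largest complex. Its 36 genes had a median difference of 1.03 in cardiomyocytes against fibroblasts, with 28 above 0, and of 1.13 in fibroControl against fibroblast cells, with 31 above 0. In fibroTIPeR against fibroControl cells the median was -0.52, with 9 above 0, and in astroTIPeR against astroControl cells it was 0.56, with 28 above 0. Among the 6 measured core subunits, those conserved from bacteria that carry the redox centres and the quinone site, the median difference was 1.74 in cardiomyocytes and 2.58 in fibroControl cells, both against fibroblasts. In both comparisons 5 of them were above 0 and Ndufs1 was below, at -0.52 and -1.34. Ndufv1, which binds NADH, was at 6.63, 7.07, 8.68 and 8.49 in cardiomyocytes, against 3.85, 3.13 and 6.02 in fibroblasts, a difference of 3.39 (SE 1.15, adjusted p = 0.313). Ndufs7, which holds the iron-sulfur cluster next to the quinone, was at 8.73, 10.2, 10.8 and 10.33 in cardiomyocytes, against 5.37, 7.09 and 8.54 in fibroblasts, a difference of 3.01 (SE 1.14, adjusted p = 0.369). All 4 cardiomyocytes were above all 3 fibroblasts in both genes, with the closest cells less than 1 log2 unit apart. Ndufv3, an accessory subunit near the NADH site, showed the same order, with a difference of 2.96 (SE 1.03, adjusted p = 0.322). The further Ndufv1 probe sets differed by only 0.04 and 0.12 in cardiomyocytes against fibroblasts, and the further Ndufs7 probe set by 0.31.

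Ndufs3, a core subunit of the peripheral arm, came closest to the threshold of any member. It was at 8.42, 7.79 and 6.80 in fibroControl cells, against 3.85, 4.91 and 4.12 in fibroblasts, a difference of 3.38 (SE 0.89, adjusted p = 0.0504). In fibroTIPeR cells it was at 8.23, 6.40, 7.82, 3.95 and 4.38, and in cardiomyocytes at 5.46, 4.49, 4.78 and 3.97, so it was high in fibroControl cells and in fibroTIPeR cells 1 to 3 and low in both untransfected cell types. Ndufb6, an accessory subunit of the membrane arm, was at 10.0, 7.70 and 10.09 in fibroControl cells, against 4.49, 4.12 and 4.43 in fibroblasts, a difference of 4.91 (SE 1.33, adjusted p = 0.0554). FibroTIPeR cells had 10.88, 6.63, 10.6, 5.13 and 4.89 of it and cardiomyocytes 4.28, 4.17, 4.94 and 4.08. In both genes fibroTIPeR cells 4 and 5, the pair with 18S levels of 7.80 and 7.88, were the lowest of their group. The second Ndufb6 probe set differed by 1.31 in fibroControl against fibroblast cells. It differed by -0.24 in fibroTIPeR against fibroblast cells (3.28 for the one used) and by 0.06 in fibroTIPeR cells against cardiomyocytes (3.26 for the one used). Ndufa8, another accessory subunit, had a difference of 3.01 in fibroControl against fibroblast cells (SE 0.89, adjusted p = 0.0759). With the 18S level as a term these differences were 0.64 for Ndufs3, 0.44 for Ndufb6 and 1.92 for Ndufa8, with adjusted p-values of 0.858, 0.935 and 0.626. In that fit 0 of 18193 genes passed in fibroControl against fibroblast cells.

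In astrocytes the complex I genes with the smallest p-values pointed in opposite directions. Ndufb4, an accessory subunit of the membrane arm, ran from 4.33 to 6.62 in astroTIPeR cells with a median of 5.58, against 6.61 and 11.06 in astroControl cells (difference -3.17, SE 1.01, adjusted p = 0.226). Ndufab1, the mitochondrial acyl carrier protein that is also a complex I subunit, ran from 6.25 to 8.88 with a median of 8.27 in astroTIPeR cells, against 4.43 and 5.15 in astroControl cells (difference 3.21, SE 1.14, adjusted p = 0.309). The groups overlapped for Ndufb4 and not for Ndufab1. The further Ndufab1 probe sets differed by -0.44, 1.22, -1.77 and 0.72, and over the alternatives its difference was as low as 0.59. The high Ndufb4 value came from astroControl 2 alone, and in a fit without astroControl 1 the genes Ndufb4 (-5.39, adjusted p = 0.00852), Uqcr10 (-4.63, adjusted p = 0.0130) and Cyc1 (-4.15, adjusted p = 0.0188) passed, with 1 control cell assumed to vary like the other groups. In that fit 2.98% of all genes passed, near the share of these 3 among the 81 members.

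The 4 genes of complex II, the succinate dehydrogenase that also serves the citric acid cycle, gave 1 unadjusted p below 0.05 over the 6 comparisons, that of Sdhb in cardiomyocytes against fibroblasts, and the lowest adjusted p was 0.409, for Sdhd in fibroTIPeR cells against cardiomyocytes. Sdhb, the iron-sulfur subunit, was at 9.66, 11.09, 12.73 and 11.52 in cardiomyocytes, against 7.70, 8.58 and 11.14 in fibroblasts, a difference of 2.11 (SE 0.98, adjusted p = 0.492). The groups overlapped through fibroblast 3. Sdha, the flavoprotein subunit, was at 10.77, 5.46, 9.50, 7.01 and 5.46 in fibroTIPeR cells, against 8.42, 9.46 and 8.49 in fibroControl cells (difference -1.15, adjusted p = 0.880), and its sign turned, to 0.48, when the mean of its probe sets was used. The probe sets used for the membrane anchors varied less: Sdhc ranged from 4.22 to 7.10 and Sdhd from 11.07 to 12.71 over the 23 cells. The other Sdhd probe set ranged more widely, from 3.76 to 9.92 (SD 1.83), and the other Sdhc probe set had an SD of 0.895.

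Complex III, the cytochrome bc1 complex, was represented by 9 genes. Uqcr11, a small subunit added late in assembly, was at 8.59, 8.26, 9.44, 3.56 and 4.26 in fibroTIPeR cells, against 3.64, 4.26, 4.29 and 3.78 in cardiomyocytes (difference 2.83, SE 0.91, adjusted p = 0.174). It was at 6.49, 8.12 and 7.72 in fibroControl cells and at 4.10, 2.54 and 5.38 in fibroblasts (difference 3.43, SE 1.11, adjusted p = 0.103). FibroTIPeR cells 1, 2 and 3 were above every cardiomyocyte and every fibroblast, and cells 4 and 5 were not. With the 18S level as a term the difference between fibroTIPeR cells and cardiomyocytes was -0.09 and that between fibroTIPeR cells and fibroblasts was -0.14. Uqcrh, the hinge protein that helps cytochrome c1 and cytochrome c meet, had the smallest p-value in cardiomyocytes against fibroblasts, at 13.49, 12.55, 14.02 and 14.03 in cardiomyocytes against 12.16, 12.90 and 12.68 in fibroblasts (difference 0.94, SE 0.32, adjusted p = 0.305). Uqcrq, a small subunit of the membrane part, was at 9.66, 10.18, 9.73 and 9.70 in cardiomyocytes, against 8.15, 8.73 and 7.26 in fibroblasts, and did not overlap (difference 1.77, SE 0.70, adjusted p = 0.398). Cyc1, the cytochrome c1 subunit, ran from 5.34 to 6.62 in astroTIPeR cells with a median of 5.81, against 6.82 and 10.08 in astroControl cells (difference -2.52, SE 0.84, adjusted p = 0.253). Uqcrb, a subunit at the quinone site, was lower without overlap in fibroControl cells, at 12.48, 11.81 and 11.33, against 13.95, 13.96 and 14.98 in fibroblasts, and passed in a fit of those 2 groups alone (difference -2.43, adjusted p = 0.0166), in which 0.473% of all genes passed. The second Uqcrb probe set, which averaged 4.25, differed by -0.16 in that comparison. It differed by 0.94 in fibroTIPeR against fibroblast cells (-2.21 for the one used).

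Cycs encodes somatic cytochrome c, the soluble carrier between complexes III and IV, which is also known as a trigger of apoptosis when released from mitochondria. It was at 6.43, 6.91, 5.94, 6.54 and 6.90 in fibroTIPeR cells, against 4.95, 6.27 and 5.59 in fibroControl cells (difference 0.94, adjusted p = 0.842). Cardiomyocytes had 7.20, 8.65, 7.37 and 6.63 and fibroblasts 6.24, 7.02 and 8.66, with a difference of 0.15 (adjusted p = 0.960). These levels are from the probe set used, which averaged 6.17. The further Cycs probe sets, which averaged 6.13, 5.77 and 5.32, differed by 1.06, 1.60 and 1.29 in cardiomyocytes against fibroblasts. AstroTIPeR cells ran from 4.84 to 6.05 with a median of 5.47, against 3.51 and 4.37 in astroControl cells, which did not overlap (difference 1.53, SE 0.72, adjusted p = 0.517). The further probe sets differed by 0.54, -1.66 and 1.66 there. In the probe set used, Cycs was lower in fibroControl than in fibroblast cells by the group means (difference -1.70, SE 0.72, adjusted p = 0.218). That direction was opposite to that of most members, but the further probe sets differed by only 0.17, 0.31 and -0.17 in that comparison.

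Complex IV, cytochrome c oxidase, had small median differences in the probe sets used. Its 14 genes had a median difference of 0.31 in cardiomyocytes and of 0.06 in fibroControl cells, both against fibroblasts, and of 0.33 in fibroTIPeR against fibroControl cells, with 11 above 0. The probe sets used for Cox8a, Cox5b, Cox6a1 and Cox6b1 were bright and nearly flat. The second to sixth Cox5b probe sets differed by 1.99, 2.18, 2.98, 0.41 and -0.01 in cardiomyocytes against fibroblasts (0.32 for the one used). In fibroControl against fibroblast cells they differed by 2.45, 3.49, 4.03, 1.91 and -0.56 (0.08 for the one used). Cox4i1, the ubiquitous form of the subunit through which ATP regulates the enzyme, was at 11.19, 7.17, 10.15, 5.17 and 6.90 in fibroTIPeR cells, against 5.84, 4.17, 4.63 and 4.65 in cardiomyocytes (difference 3.30, SE 0.87, adjusted p = 0.0844). Only fibroTIPeR cell 4 lay inside the range of the cardiomyocytes. Cox4i1 passed when fibroTIPeR cell 4 (difference 4.03, adjusted p = 0.0132) or cell 5 (3.60, adjusted p = 0.0433) was left out, and Uqcr11 passed with it in both cases (3.65, adjusted p = 0.0292, and 3.47, adjusted p = 0.0479). These were 2 of the 81 members, where 1.19% of all genes passed without cell 4 and 1.48% without cell 5. Of the forms known from testis, Cox6b2 was at 9.71 in cardiomyocyte 2 and 9.25 in astroControl 1 and between 3.44 and 6.97 in the other cells. Cox7b2 ranged from 3.51 to 8.73 over the 23 cells. Cox8c was lower without overlap in fibroControl cells, at 8.13, 9.64 and 8.33, against 9.86, 10.59 and 9.95 in fibroblasts (difference -1.43, SE 0.68, adjusted p = 0.273). The second Cox8c probe set was higher in that comparison, by 0.67. Cox8a and Cox6a1, the widely expressed forms of subunits 8A and 6A, ranged from 11.85 to 12.62 and from 12.03 to 13.09 over all 23 cells.

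Complex V makes the ATP. Its 17 genes had a median difference of 1.48 in fibroControl against fibroblast cells, with 11 above 0, of 0.36 in cardiomyocytes against fibroblasts, with 16 above 0, and of -0.02 in fibroTIPeR against fibroControl cells. Atp5j2 was at 10.35, 9.54 and 9.12 in fibroControl cells, against 6.53, 4.91 and 4.57 in fibroblasts, a difference of 4.33 (SE 1.28, adjusted p = 0.0755). Atp5e was at 6.19, 7.17 and 4.90 in fibroControl cells, against the 3.85, 3.62 and 4.12 given above for fibroblasts, a difference of 2.22 (SE 0.66, adjusted p = 0.0779). With the 18S level as a term, where 0 of 18193 genes passed, the difference was 0.35 for Atp5j2 (adjusted p = 0.953) and 2.10 for Atp5e (adjusted p = 0.513). With the mean of all its probe sets it was 1.59 for Atp5j2. Neither gene overlapped between those groups, and neither stood higher in cardiomyocytes than in fibroblasts beyond the spread, with 5.66, 4.81, 5.83 and 5.28 for Atp5j2 and 3.87, 3.34, 4.39 and 4.21 for Atp5e in cardiomyocytes. Atp5c1, the gamma subunit that turns within the catalytic head, was at 4.65, 5.69, 7.89 and 7.13 in cardiomyocytes, against 5.04, 1.93 and 4.69 in fibroblasts (difference 2.46, SE 1.10, adjusted p = 0.473). The second Atp5c1 probe set, which averaged 3.81, had the other sign there (-0.37).

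The 3 genes for the c subunit of the proton-driven ring encode the same mature protein and differed in the probe sets used. Atp5g1 was at 6.17, 6.47, 6.12, 4.88 and 6.28 in fibroTIPeR cells and 5.53, 6.32 and 6.18 in fibroControl cells, against 5.10, 6.08, 4.74 and 3.65 in cardiomyocytes and 5.23, 4.52 and 3.85 in fibroblasts. Atp5g3 was at 13.58, 12.00, 13.82, 11.53 and 10.43 in fibroTIPeR cells and 12.96, 11.30 and 11.67 in fibroControl cells, against 10.11, 12.64, 12.76 and 13.32 in cardiomyocytes and 9.41, 10.36 and 12.60 in fibroblasts. Atp5g2 stayed between 11.40 and 12.40 in all 23 cells. Over the 23 cells Atp5g3 followed the other members (r = 0.785 with their median), Atp5g1 did so weakly (r = 0.241) and the probe set used for Atp5g2 did not (r = -0.345). That probe set was bright and nearly flat, with an SD of 0.24, and the third Atp5g2 probe set, which averaged 5.07, did follow the other members (r = 0.651).

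**Figure D4:**
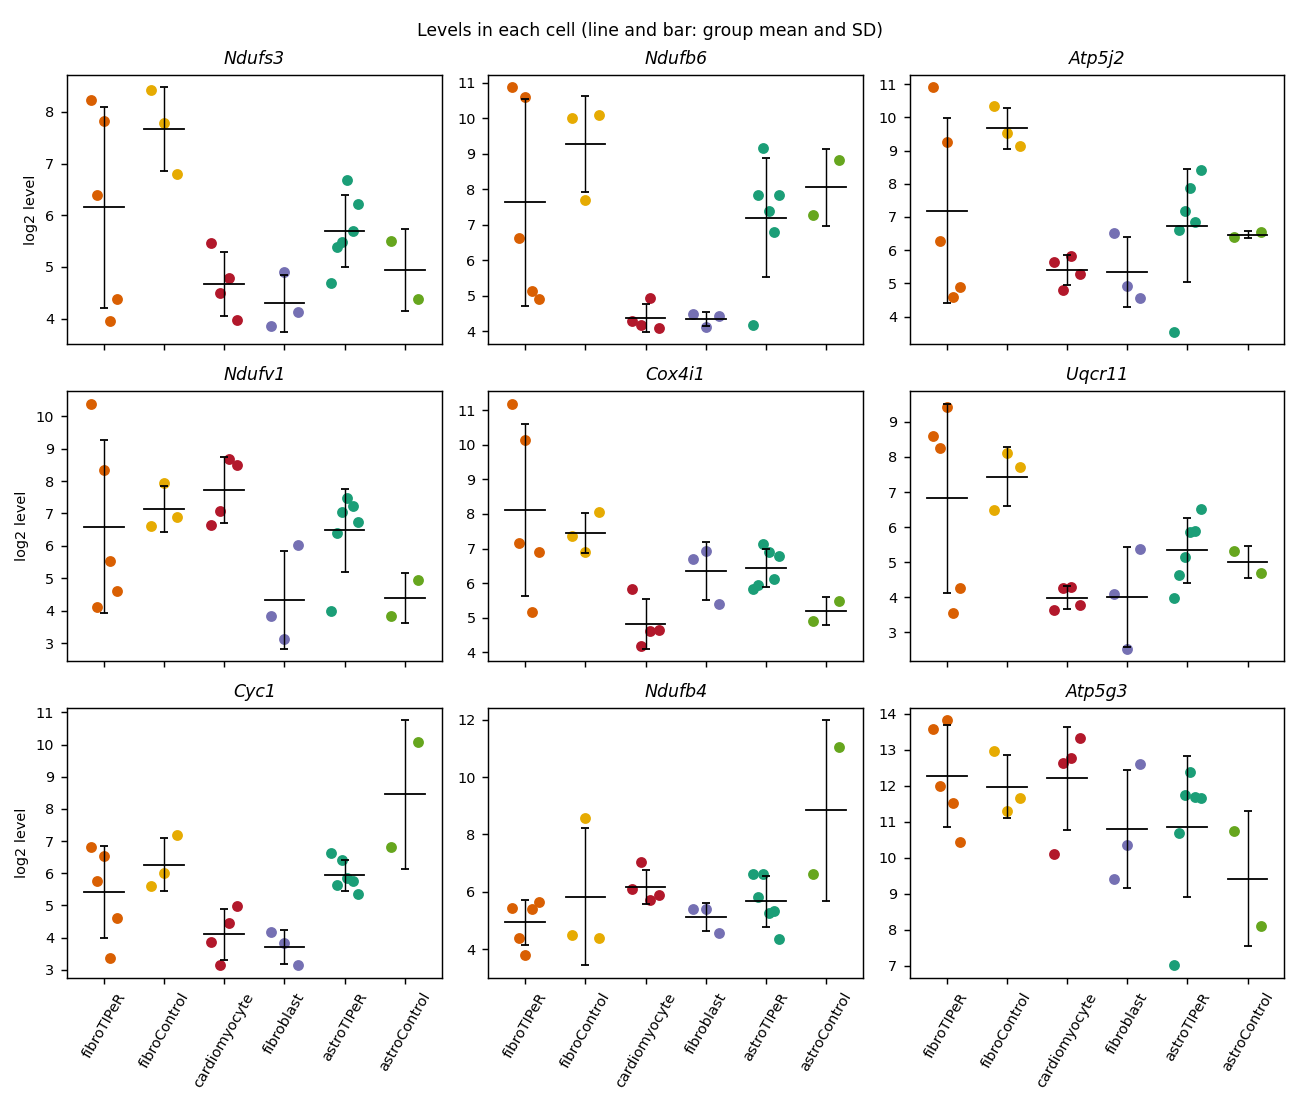
Log2 level of 9 members in each cell, a point for each cell, with a line at the group mean and a bar of 1 SD on each side. Ndufs3, Ndufb6, Atp5j2 and Uqcr11 are high in fibroControl cells and in fibroTIPeR cells 1 and 3 and low in cardiomyocytes and fibroblasts. By the group means Ndufv1 is above fibroblasts in cardiomyocytes (by 3.39), in fibroControl cells (by 2.81) and in fibroTIPeR cells (by 2.26). Cyc1 and Ndufb4 each have 1 high astroControl cell.

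The members varied together. For each gene its Pearson correlation with the median of the other members was computed over the 23 cells, as a description, since the values of a cell share 1 array and 1 amplification. It was above 0.5 for 38 of the 81 genes (46.9%), against 3.55% of all genes. After the group means were taken out it was above 0.5 for 47 genes (58.0%), against 9.81% of all genes. By complex these were 26 of 36 genes in complex I, 11 of 17 in complex V, 5 of 14 in complex IV, 3 of 9 in complex III and 2 of 4 in complex II. Cycs, in the probe set used, was not among them. The closest followers within groups were Ndufb7 (r = 0.902), Ndufv1 and Ndufv2 (r = 0.895 each), Atp5d (r = 0.894) and Ndufs7 (r = 0.887). Cox8c (r = -0.746), Ndufs4 (r = -0.620) and Ndufs1 (r = -0.574) ran against the rest. FibroTIPeR cells 1 and 3, with the highest members, also had the highest medians of ribosomal protein genes (11.3 and 10.6) and the highest 18S levels (12.4 and 13.5) of all cells, and astroTIPeR cell 1, with the lowest members of all cells (6.30), had the lowest ribosomal protein median (6.27) and 18S level (7.63) of its group. In cardiomyocytes the members were high and the ribosomal protein genes low.

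Promoters are shown for the c subunit genes, whose probe sets followed the other members to different degrees, and for Ndufs3 and Uqcr11, which had some of the largest differences in fibroControl cells. Each is the 250 bases before the annotated start in RefSeq on build GRCm38.p6, written 5′ to 3′ on the gene's strand, with matches to the 4 searched motifs in capitals. The genes lie on the minus strand, Atp5g1 at chr11:96075632-96075881, Atp5g2 at chr15:102671048-102671297, Atp5g3 at chr2:73911327-73911576, Ndufs3 at chr2:90904722-90904971 and Uqcr11 at chr10:80406822-80407071.
Atp5g1: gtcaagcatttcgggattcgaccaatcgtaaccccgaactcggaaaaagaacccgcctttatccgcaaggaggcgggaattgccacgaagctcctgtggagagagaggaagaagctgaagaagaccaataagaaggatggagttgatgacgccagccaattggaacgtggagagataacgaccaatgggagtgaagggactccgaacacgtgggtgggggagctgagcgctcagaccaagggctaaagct
Atp5g2: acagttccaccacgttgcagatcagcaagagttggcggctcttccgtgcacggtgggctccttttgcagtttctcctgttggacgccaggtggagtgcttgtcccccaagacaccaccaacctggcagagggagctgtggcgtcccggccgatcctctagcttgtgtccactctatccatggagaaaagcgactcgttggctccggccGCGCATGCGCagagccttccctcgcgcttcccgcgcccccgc
Atp5g3: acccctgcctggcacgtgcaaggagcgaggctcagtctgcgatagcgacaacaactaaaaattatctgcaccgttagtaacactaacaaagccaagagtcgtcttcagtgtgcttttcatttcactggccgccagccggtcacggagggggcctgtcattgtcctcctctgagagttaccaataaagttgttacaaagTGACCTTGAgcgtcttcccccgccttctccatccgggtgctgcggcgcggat
Ndufs3: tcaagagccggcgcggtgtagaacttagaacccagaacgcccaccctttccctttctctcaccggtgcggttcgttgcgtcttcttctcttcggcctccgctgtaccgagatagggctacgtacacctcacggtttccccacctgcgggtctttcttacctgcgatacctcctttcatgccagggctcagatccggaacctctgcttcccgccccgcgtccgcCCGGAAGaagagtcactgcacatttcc
Uqcr11: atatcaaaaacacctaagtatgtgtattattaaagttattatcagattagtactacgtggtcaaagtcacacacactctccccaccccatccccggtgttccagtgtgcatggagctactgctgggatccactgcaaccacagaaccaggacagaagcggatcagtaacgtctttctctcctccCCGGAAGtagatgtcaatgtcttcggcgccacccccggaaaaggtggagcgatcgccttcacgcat
The motifs were those of 4 factors known to act on nuclear genes of mitochondria, searched on both strands: the palindromic NRF1 motif, of which the capitals in Atp5g2 are an instance, CCGGAAG for the ETS family, which includes GABP, AAGATGGC for YY1 and TCAAGGTCA for the estrogen-related receptors. In the sequences shown, Atp5g2 held the NRF1 motif at position -42 from the start, Atp5g3 the receptor motif on the opposite strand at -52, Ndufs3 and Uqcr11 the ETS motif at -27 and -66, and Atp5g1 none. Promoter windows of 300 bases, which run 50 bases past the start, were available for 66 of the 81 members. The NRF1 motif was in 15 of them (22.7%, against 8.61% of 14452 tested genes with a window), the ETS motif in 17 (25.8%, against 15.0%), the YY1 motif in 9 (13.6%, against 4.07%) and the receptor motif in 2 (3.03%, against 0.401%). A match describes the letters only and is not a site shown to be bound.

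Different probe sets of 1 gene often gave different pictures. Of the 81 genes 49 had several probe sets and 32 had 1. The 89 further probe sets had a median correlation of 0.236 with the one used for their gene, above 0.5 for 23 and below 0 for 27. In cardiomyocytes against fibroblasts 24 of the 49 genes had a probe set of the other sign, in fibroTIPeR against fibroControl cells 29, in fibroControl against fibroblast cells 22 and in astroTIPeR against astroControl cells 34. The probe sets used for 9 genes, Cox8a, Cox5b, Cox6a1, Cox6b1, Atp5a1, Atp5g2, Ndufa7, Sdhd and Uqcrh, had means above 11 and an SD under 0.6 over the 23 cells. For Cox5b the probe set used ranged from 10.91 to 12.17, and its second probe set ranged from 4.69 to 12.06 and followed the other members (r = 0.897). For Atp5a1, the alpha subunit of the catalytic head, the probe set used ranged from 10.51 to 12.12 and its second from 4.26 to 12.01 (r = 0.797 with the other members). With every probe set tested on its own, 1 member probe set passed in fibroControl against fibroblast cells, the second of Ndufc2 (difference 4.90, adjusted p = 0.0431), and 1 in fibroTIPeR cells against cardiomyocytes, the third of Cox7a2l (difference 2.79, adjusted p = 0.0413), where 1.37% and 0.630% of all probe sets passed.

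**Figure D5:**
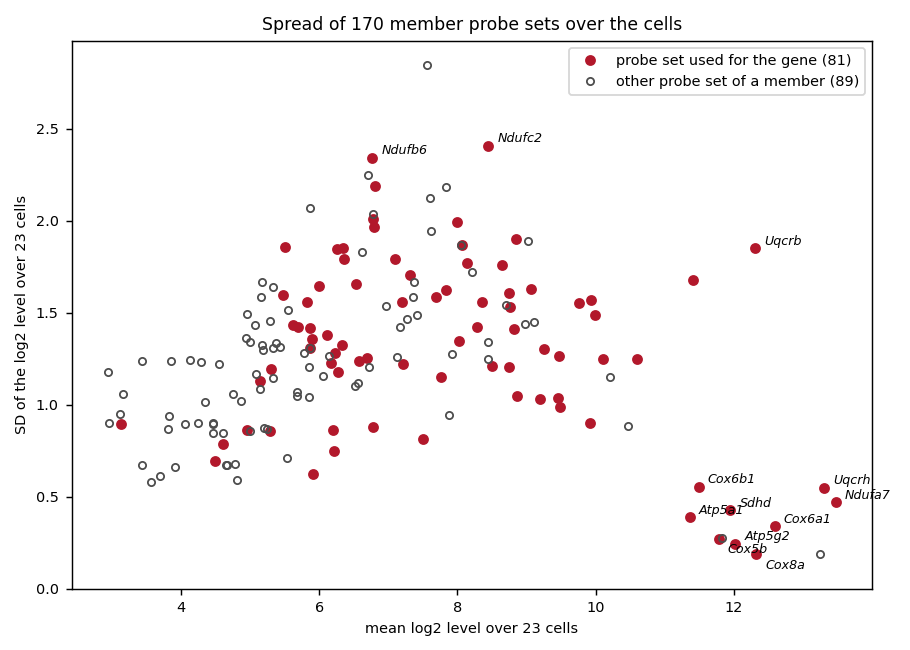
Mean and SD of the log2 level over the 23 cells for each of the 170 probe sets, with the 81 used for the genes filled and the other 89 open. The 9 named probe sets at the lower right have means above 11 and SDs under 0.6, and Ndufc2 and Ndufb6 have the widest spreads of the filled points.

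Genes around the complexes gave few calls. Cox7a1, the heart and skeletal muscle form of a complex IV subunit that the rule left out, was at 6.50, 7.05, 8.74 and 8.62 in cardiomyocytes, against 4.82, 4.21 and 5.34 in fibroblasts, and rose by 2.93 (SE 0.64, adjusted p = 0.0480), a call that held in 4 of 17 alternatives (adjusted p up to 0.256). In fibroTIPeR cells it was at 4.40, 4.59, 3.80, 3.95 and 4.38 and was lower than in cardiomyocytes by all cells (difference -3.50, SE 0.57, adjusted p = 0.00165). The other 2 muscle forms, Cox6a2 and Cox8b, passed in no comparison. Among 13 regulators of mitochondrial biogenesis, Esrra, an estrogen-related receptor that acts on respiratory genes, was at 10.84, 11.15 and 11.30 in fibroControl cells, against 7.20, 8.04 and 6.43 in fibroblasts, and rose by 3.87 (SE 0.99, adjusted p = 0.0433). That call held in 3 of 17 alternatives and was lost with the 18S level as a term (difference 1.12, adjusted p = 0.764), where 0 of 18193 genes passed. It was the only regulator to pass in any of the 6 comparisons. Among 14 genes of carriers, outer membrane and chaperones, Hspe1, a chaperonin of the matrix, fell in fibroControl cells, at 6.41, 8.94 and 8.95, against 11.07, 11.38 and 11.07 in fibroblasts (difference -3.07, SE 0.74, adjusted p = 0.0337). That call was lost with the 18S level as a term (difference -1.04, adjusted p = 0.706), where 0 of 18193 genes passed. The sign of Hspe1 turned with the mean of all its probe sets (0.28). None of 30 assembly factors, 16 citric acid cycle genes or 15 fatty acid oxidation genes passed in any of the 6 comparisons, with the smallest adjusted p-values in fibroControl against fibroblast cells being 0.0729, 0.158 and 0.0859. Of the 50 cytosolic ribosomal protein genes, 6 rose in fibroTIPeR cells against cardiomyocytes (median difference 2.85 over the 50). With the 18S level as a term 0 of these passed (smallest adjusted p = 0.968), where 0.066% of all genes did. Rpl41 alone of the 50 fell in cardiomyocytes against fibroblasts (median difference -1.30 over the 50).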

How the data were processed

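The deposited values of the 23 arrays are log2 levels by their range. The authors' summarization, background correction and normalization behind these log2 values are not given in the labels used here. Per the labels' protocols, RNA of single cells was amplified (aRNA) before hybridization. Detection calls were not used, so no level is called absent. Precision is limited by the number of arrays. All 45101 probe sets were quantile normalized over the 23 arrays, because the deposited medians of the 2 array sets differ. The 64 control probe sets, 932 with several symbols and 9160 without an entry in the annotation were left out of the tests. The test used limma 3.58.1 (R 4.3.3, statmod 1.5.0): lmFit with 6 group means, eBayes with trend, two-sided, Benjamini-Hochberg adjustment over 18193 genes. Python 3.11.15 and matplotlib 3.10.9 drew the figures. The fit was tested on simulated data. The members, gene lists and markers were chosen with earlier results of these data known. Genes were named by a rule: in each comparison the 5 with the smallest p, in each complex those with the highest and lowest levels and the smallest p, every Sdh gene, Cyc1 and Cycs, isoforms, paralogs and core subunits, and those with the widest and narrowest spread. Alternatives used median centring or the deposited values, quantile normalization within array sets, the mean of all probe sets, every probe set, genes above the median level, the compared groups alone, the replicate number or the 18S level as a term, eBayes without trend or robust, arrayWeights, and each cell left out in turn.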

Additional observations from a re-analysis of the deposited data

Results flagged for a closer look

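In 21 of the 183 groups of 4 to 6 cells examined (11.5%, over 55 named genes and 6 medians, those of all members and of the 5 complexes), 1 cell lay far from the rest of its group, judged by the gap to the nearest other cell relative to the range of the group. Chance gives this in about 1 in 20 groups, and the genes share cells. AstroTIPeR cell 1 was the low cell for 8 of the genes: Atp5g3 was at 7.01 there and at 10.68 to 12.38 in the other 5 astroTIPeR cells, Uqcrb at 7.08 (11.92 to 12.18), Ndufc2 at 3.26 (7.89 to 9.10) and Ndufs7 at 5.77 (8.32 to 9.46). In the same cell Atp5j2 was at 3.54, Ndufa3 and Ndufc1 were both at 2.95, and Ndufv1 was at 3.98. Cardiomyocyte 1 was the low cell of its group for Uqcrb, at 11.85 against 14.32 to 14.54 in the other 3, for Ndufb3 at 9.01, Ndufa5 at 8.90, Cox7a2 at 8.83 and Ndufc2 at 6.68. Cardiomyocyte 2 was low for Uqcrc1 at 5.67 (8.90 to 9.24) and high for Ndufs5 at 4.68 and Uqcrq at 10.18. FibroTIPeR cell 1 was low for Ndufs4, at 5.76 against 10.23 to 11.19, fibroTIPeR cell 2 for Cox6a1 at 12.15, and fibroTIPeR cell 4 for Atp5g1 at 4.88. AstroTIPeR cell 3 was low for Atp5c1 at 4.12, and astroTIPeR cell 6 was high for Sdha at 8.54.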

How the results depend on the processing

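With arrayWeights, which down-weights noisy arrays, 12 members passed in cardiomyocytes against fibroblasts (10 higher, 2 lower, where 6.21% of all genes passed) and 16 in fibroControl against fibroblast cells, all higher (10.4% of all genes). The fit of the compared groups alone passed 1 member, Uqcrb, in fibroControl against fibroblast cells (0.473% of all genes), and testing every probe set passed 1 there (1.37% of all probe sets) and 1 in fibroTIPeR cells against cardiomyocytes (0.630%). With the 18S level as a term the median difference in fibroControl against fibroblast cells was -0.41, and 0 of 18193 genes passed there. Of the 145 counts under alternatives 137 equalled the reported 0. Of the 94 medians under alternatives 90 moved by less than 1 pooled SD of the median level over cells, but 5 had the other sign and a further 25 moved by over 1.5 times. That SD was 1.13, 1.12 and 1.14 for fibroTIPeR cells against fibroControl cells, fibroblasts and cardiomyocytes. The reported median differences there were -0.09, 0.61 and -0.15, so a shift larger than the reported value could stay within 1 SD. Leaving out 1 cell at a time, the members that passed ranged from 0 to 3 in astroTIPeR against astroControl cells (2.98% of all genes passed where 3 did), from 0 to 2 in fibroTIPeR cells against cardiomyocytes (1.19% and 1.48% where 2 did), and were 0 throughout in the other comparisons. The median difference then ranged from 0.10 to 0.91 in astroTIPeR against astroControl cells, from 0.53 to 0.95 in cardiomyocytes against fibroblasts, from 0.43 to 1.07 in fibroControl against fibroblast cells, from -0.49 to -0.07 in fibroTIPeR cells against cardiomyocytes, from -0.47 to 0.03 in fibroTIPeR against fibroControl cells and from 0.31 to 1.04 in fibroTIPeR against fibroblast cells. That of the effect in fibroblasts minus the effect in astrocytes ranged from -0.99 to -0.34. Hspe1 in fibroControl against fibroblast cells turned to 0.28 with the mean of all probe sets. Of the 52 member gene results, 46 kept their sign in every alternative and 15 passed in at least 1; the exceptions in sign were Cycs in cardiomyocytes against fibroblasts, Ndufb6 and Uqcr11 in fibroTIPeR against fibroblast cells, Uqcr11 in fibroTIPeR cells against cardiomyocytes, Sdha in fibroTIPeR against fibroControl cells and Sdhc in astroTIPeR against astroControl cells. Apart from the effects of fewer cells in a fit, the cause of these shifts was not tested.

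With the replicate number as a block, 0 members passed in every comparison, and the median difference was 0.74 in cardiomyocytes against fibroblasts, -0.13 in fibroTIPeR against fibroControl cells, 0.65 in fibroTIPeR against fibroblast cells, 0.64 in fibroControl against fibroblast cells, 0.22 in astroTIPeR against astroControl cells and -0.17 in fibroTIPeR cells against cardiomyocytes. The labels do not say that a number marks a shared culture or day, and the deviations of same-numbered cells correlated between -0.341 and 0.285, so the numbers were not taken as pairs.

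Groups of 2 to 6 single cells and 1 array a cell limit what differences can pass, and levels are relative to the other genes of an array, so RNA amount per cell is not measured. Several bright probe sets varied little, and no detection calls were used, so small differences at the top or bottom of the range cannot be read.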
